A study of Mus musculus with 28 samples.

Results

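The 10 genes described here encode the proteins that carry histone H3 to DNA and place it in chromatin: Hira, Ubn1, Ubn2 and Cabin1 of the HIRA complex, Atrx and Daxx, the donors Asf1a and Asf1b, and Chaf1a and Chaf1b of chromatin assembly factor 1 (CAF-1). They were chosen by name, 10 of the 23951 gene symbols in the RNA tables, and all 10 were among the 11728 genes with a mean FPKM (fragments scaled to transcript length and library size) of at least 1. The study depleted the histone variant H3.3 in mouse NIH/3T3 Tet-On 3G cells, an embryonic fibroblast line with a doxycycline-dependent transactivator, and followed H3.3 and the nucleosome remodelling and deacetylase complex (NuRD) on chromatin. RNA came from 3 knockdown clones that carried the constructs OFP-H3.3A/GFP-H3.3B and from 2 control clones that carried GFP-Luciferase/OFP-Luciferase. The treatment label of all 5 RNA clones names FLAG/HA-H3.3 cells and 2 mg/ml doxycycline, so the knockdown and the control clones shared both. MTA1 and RBBP4, subunits of NuRD, were each precipitated from 1 knockdown and 1 control library, and 6 NuRD subunits and 3 histone modifications from unmodified cells, with 1 library each. HA-tagged H3.3 was precipitated in 2 replicates from cells held with aphidicolin, an inhibitor of DNA polymerases, and given doxycycline. Tagged H3.3 bound with RBBP4 was sought by a sequential ChIP, with FLAG and then RBBP4 antibodies, in cells also given 2 mg/ml doxycycline. A clone is 1 selected line, and no label says whether the clones were grown at separate times, so p-values measure the spread among these 5 clones.

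Cells lay down H3 by routes that differ in timing. CAF-1 brings newly made canonical H3 to the replication fork together with the sliding clamp PCNA, whereas the HIRA complex places H3.3 at genes and regulatory DNA at any time of the cell cycle and ATRX with DAXX places it at repeats, telomeres and pericentric heterochromatin. ASF1 hands H3 with H4 to HIRA or to CAF-1, and of its paralogs ASF1A is the usual partner of HIRA while ASF1B is linked to dividing cells.

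Both CAF-1 genes were lower in all 3 knockdown clones than in both control clones, and Atrx and Ubn2 were higher in all 3. The remaining 6 genes overlapped between the groups. None of the 10 passed the limma test over all genes (adjusted p under 0.05). The background was low, since 0.0341% of the tested genes passed in either direction. At an unadjusted p under 0.05 the test picked 2 of the 10, Atrx and Chaf1b, against 9.81% of all tested genes. All knockdown clones lay above both controls in 11.4% of tested genes and below both in 21.2%, against 2 and 2 of the 10. The median log2 difference, knockdown minus control on the log2(FPKM + 1) scale, was −0.23 over the 10 genes and −0.10 over all tested genes. It was below 0 in 8 of the 10, against 59.9% of tested genes. Leaving out a clone can only keep or raise the count of genes with every knockdown clone below the controls. It was 4 without knockdown clone 1, where Ubn1 and Daxx were added, 4 without knockdown clone 3, and 6 without control clone 2. The shares of all tested genes with the same clones left out were not computed. RNA from bulk cultures cannot tell fewer expressing cells from less RNA per cell.

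The RNA libraries held an estimated 18.2 to 26.5 M fragments. The deposited confidence interval of a chaperone gene reached 2.54% to 10.1% to either side of its FPKM, which is less than the spread between clones of most of the 10 genes. Of 11 fibroblast markers, 10 had a mean FPKM of at least 1, and their sum was 8143 to 9687 in the knockdown clones and 6480 to 7251 in the control clones. Ptprc and Cd3e of blood cells, Epcam and Krt18 of epithelium and Kdr of endothelium were under 0.05 in every clone. The blood, epithelial, endothelial and pluripotent cell lists each held 1 marker with a mean FPKM of at least 1. The 3 pluripotent cell markers summed to 2.37 to 12.2 FPKM in the knockdown clones and to 3.57 to 5.58 FPKM in the controls. The 4 blood markers summed to 2.92 to 4.45 FPKM in the knockdown clones and to 3.15 to 3.47 FPKM in the controls. The 4 epithelial markers summed to 0.658 to 6.38 FPKM in the knockdown clones and to 2.30 to 2.51 FPKM in the controls. The 3 endothelial markers summed to 0.235 to 0.751 FPKM in the knockdown clones and to 3.88 to 7.10 FPKM in the controls, and their part in the results was not tested. The depleted genes themselves were lower in all knockdown clones: H3f3a had 71.8, 35.6 and 5.05 FPKM in knockdown clones 1 to 3, against 128.3 and 143.5 FPKM in control clones 1 and 2. H3f3b had 144.4, 104.3 and 51.7 FPKM in the knockdown clones, against 249.4 and 237.1 FPKM in the controls. Neither passed the limma test (adjusted p = 0.516 for H3f3a and 0.469 for H3f3b). Knockdown clone 1 stood apart from the other 4 clones on the first principal component, which took 39.1% of the variance, at 72.6 against −40.1 to 0.592.

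**Figure D1:**
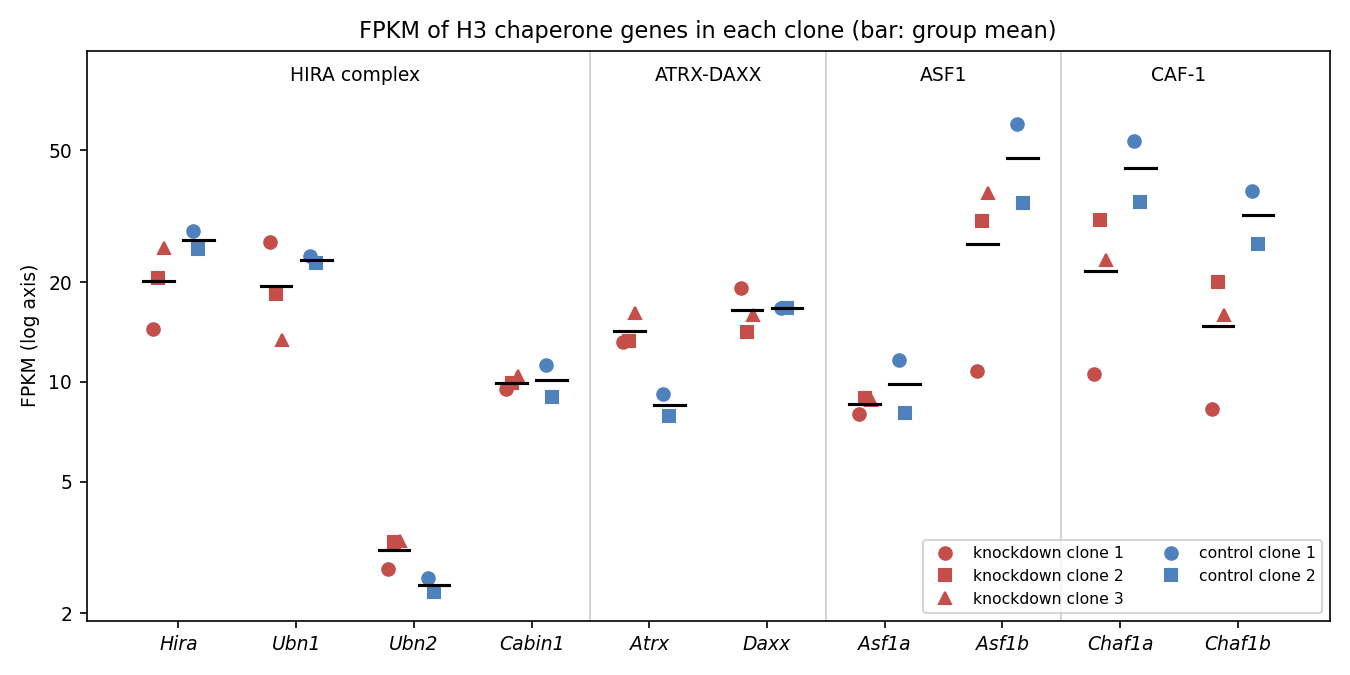
FPKM (log axis) of the 10 chaperone genes in each of the 3 knockdown clones (red) and 2 control clones (blue), with group means as bars. Chaf1a and Chaf1b lie lower in all knockdown clones, Atrx and Ubn2 higher, and knockdown clone 1 is the lowest of all clones for Hira, Asf1a, Asf1b, Chaf1a and Chaf1b.

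In level per length, Asf1b stood first in both groups and Ubn2 last. Asf1b averaged 26.2 ± 13.7 FPKM in the knockdown clones (SD, n = 3) and 47.4 ± 17.9 FPKM in the control clones (SD, n = 2). In the knockdown clones Chaf1a, Hira, Ubn1, Daxx, Chaf1b and Atrx followed, from 21.6 ± 10.2 down to 14.2 ± 1.67 FPKM, and no neighbours in that run were separate in their clone values. Cabin1 with 9.95 ± 0.473 FPKM, Asf1a with 8.59 ± 0.512 FPKM and Ubn2 with 3.10 ± 0.334 FPKM then each lay wholly below the gene before. In the control clones the order was Asf1b, Chaf1a, Chaf1b, Hira, Ubn1, Daxx, Cabin1, Asf1a, Atrx and Ubn2. The first 4 overlapped with their neighbours there, as did Cabin1, Asf1a and Atrx. Chaf1b thus stood next after Chaf1a in the control clones, with 31.9 ± 8.27 FPKM, and below Daxx in the knockdown clones, with 14.8 ± 5.99 FPKM.

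Hira, which encodes the WD-repeat scaffold of the complex, had 14.4, 20.5 and 25.3 FPKM in knockdown clones 1 to 3, against 28.6 and 25.2 FPKM in control clones 1 and 2. Knockdown clone 3 lay between the controls, and clones 1 and 2 lay under them. The log2 difference was −0.43 (SE 0.27, limma adjusted p = 0.576), and it was −0.22 without knockdown clone 1. Ubn1, which encodes the ubinuclein that recognises H3.3 in the human complex, had 26.4, 18.5 and 13.4 FPKM in the knockdown clones, against 24.0 and 22.8 FPKM in the controls. Its order over the knockdown clones was the reverse of that of Hira, with the highest value in clone 1 and the lowest in clone 3. The log2 difference of Ubn1 was −0.31 (SE 0.30, adjusted p = 0.693), −0.54 without knockdown clone 1 and −0.08 without knockdown clone 3.

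The paralog Ubn2 was low in all clones, with 2.72, 3.29 and 3.3 FPKM in the knockdown clones, against 2.55 and 2.32 FPKM in the controls. Every knockdown clone lay above both controls, knockdown clone 1 by little, and the log2 difference was 0.25 (SE 0.19, adjusted p = 0.627). The ratio of Ubn1 to Ubn2 was 9.72, 5.61 and 4.05 in the knockdown clones and 9.39 and 9.84 in the controls. Knockdown clone 1 thus matched the controls in that ratio, and clones 2 and 3 were below them. Cabin1, a large scaffold protein also known as an inhibitor of calcineurin, had 9.51, 9.89 and 10.4 FPKM in the knockdown clones, against 11.2 and 9.00 FPKM in the controls. Its log2 difference was −0.01 (SE 0.18, adjusted p = 0.977), and its sign turned under quantile normalization, where it was 0.10. Summed over Hira, Ubn1, Ubn2 and Cabin1, the complex had 53.1, 52.2 and 52.4 FPKM in the knockdown clones and 66.3 and 59.3 FPKM in the controls. The sum was close to even over the knockdown clones although Hira and Ubn1 each spread widely there, and the groups did not overlap. The mean log2 difference of the sum was −0.25, and −0.17 without control clone 1.

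Atrx, an X-linked gene for a remodelling ATPase of the SNF2 family, had 13.2, 13.3 and 16.2 FPKM in the knockdown clones, against 9.20 and 7.86 FPKM in the controls. All knockdown clones lay above both controls, at 1.55, 1.56 and 1.89 times the control mean. The log2 difference was 0.67 (SE 0.18, unadjusted p = 0.0126, limma adjusted p = 0.450). It lay at percentile 94.5 of the differences of all tested genes and ran from 0.57 to 0.79 over the alternatives tried. Daxx, the partner that holds H3.3 with H4, had 19.2, 14.2 and 16.0 FPKM in the knockdown clones, against 16.7 and 16.8 FPKM in the controls. The knockdown values lay on both sides of the controls, and the log2 difference was −0.03 (SE 0.19, adjusted p = 0.950), or 0.11 under quantile normalization. Atrx and Daxx summed to 32.4, 27.5 and 32.1 FPKM in the knockdown clones and to 25.9 and 24.6 FPKM in the controls. The groups did not overlap in this sum, which differed through Atrx.

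Asf1a had 8.00, 8.93 and 8.84 FPKM in the knockdown clones, against 11.6 and 8.07 FPKM in the controls. The knockdown clones lay close together beside control clone 2, and the log2 difference was −0.16 (SE 0.21, adjusted p = 0.760), or 0.079 without control clone 1. The locus of Asf1a lies inside that of Mcm9, and the strand of the reads was not given in the sources used here, so reads in any stretch shared by exons of both could not be assigned by strand. Mcm9 averaged 1.97 FPKM in the knockdown clones and 2.45 FPKM in the controls. Asf1b had 10.8, 30.6 and 37.1 FPKM in the knockdown clones, against 60.1 and 34.8 FPKM in the controls. Knockdown clone 3 was above control clone 2, while clone 1 had less than any other clone. The log2 difference was −0.95 (SE 0.57, adjusted p = 0.565), and −0.43 without knockdown clone 1. The ratio of Asf1b to Asf1a was 1.34, 3.42 and 4.20 in the knockdown clones and 5.16 and 4.31 in the controls. Every knockdown clone lay below both controls in this ratio, clone 3 by little.

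Chaf1a, which encodes the large subunit of CAF-1 that binds PCNA, had 10.6, 30.8 and 23.3 FPKM in the knockdown clones, against 53.5 and 34.8 FPKM in the controls. All knockdown clones were below both controls, at 0.239, 0.698 and 0.527 times the control mean. The log2 difference was −1.09 (SE 0.48, unadjusted p = 0.0687, limma adjusted p = 0.517), and −0.67 without knockdown clone 1. Chaf1b, the WD-repeat subunit that binds ASF1, had 8.25, 20.0 and 16.0 FPKM in the knockdown clones, against 37.7 and 26.0 FPKM in the controls. The groups again did not overlap, and the knockdown clones stood at 0.259, 0.629 and 0.501 times the control mean. The log2 difference was −1.12 (SE 0.40, unadjusted p = 0.0359, adjusted p = 0.491), and −0.78 without knockdown clone 1. With array weights, which give a deviating clone less weight, the log2 differences were −0.58 for Chaf1a and −0.71 for Chaf1b. The remaining CAF-1 subunit, Rbbp4, which also serves in NuRD, had 55.9, 61.2 and 65.7 FPKM in the knockdown clones, against 81.1 and 65.9 FPKM in the controls (log2 difference −0.26, adjusted p = 0.624). Its knockdown clone 3 lay just under control clone 2.

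**Figure D2:**
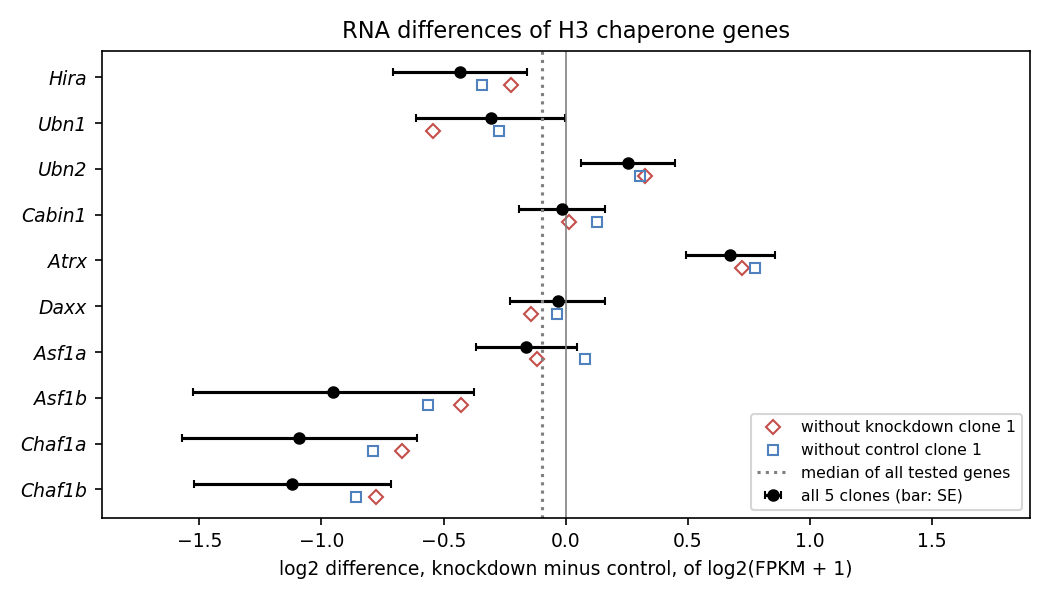
Log2 difference, knockdown minus control, of log2(FPKM + 1) for each chaperone gene, with its SE (black), without knockdown clone 1 (red diamonds) and without control clone 1 (blue squares); the dotted line is the median of all tested genes, −0.10. Asf1b, Chaf1a and Chaf1b move from near −1 to between −0.43 and −0.78 without knockdown clone 1, and Atrx stays between 0.67 and 0.78.

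The CAF-1 genes and the S-phase genes ordered the knockdown clones alike, and the depleted H3.3 genes ordered them otherwise. Over a list of 25 S-phase genes, the median log2 difference from the control mean was −1.62, −0.38 and −0.60 in knockdown clones 1 to 3, and 0.40 and −0.40 in control clones 1 and 2. Chaf1a and Chaf1b had the same order over the 3 knockdown clones, with clone 1 lowest and clone 2 highest. H3f3a and H3f3b were least depleted in clone 1 and most in clone 3. Knockdown clone 2 and control clone 2 had like S-phase medians, of −0.38 and −0.40. In these 2 clones, 1 of each group, Chaf1b had 20.0 FPKM in the knockdown and 26.0 FPKM in the control. Chaf1a had 30.8 and 34.8 FPKM. In all, 24 of the 25 S-phase genes had a log2 difference below 0, against 59.9% of all tested genes, with a median of −0.88, against −0.10. Every knockdown clone lay below both controls in 9 of them, against 21.2%, and 0 passed the limma test. The part of cell cycling in the CAF-1 difference was not tested.

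The summed FPKM of Chaf1a and Chaf1b over that of the 6 replication-independent genes was 0.220, 0.638 and 0.464 in the knockdown clones and 0.990 and 0.725 in the control clones. The groups did not overlap in this ratio, and its mean log2 difference was −1.07, with a range of −1.41 to −0.64 when any clone was left out. The numerator carried it, since CAF-1 summed to 18.8, 50.9 and 39.2 FPKM in the knockdown clones and to 91.3 and 60.8 FPKM in the controls. The replication-independent genes summed to 85.5, 79.7 and 84.6 FPKM in the knockdown clones and to 92.2 and 83.9 FPKM in the controls, which overlap. Chaf1a over Chaf1b was 1.28, 1.54 and 1.46 in the knockdown clones and 1.42 and 1.34 in the controls, so the CAF-1 genes kept a like ratio while their levels spread.

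**Figure D3:**
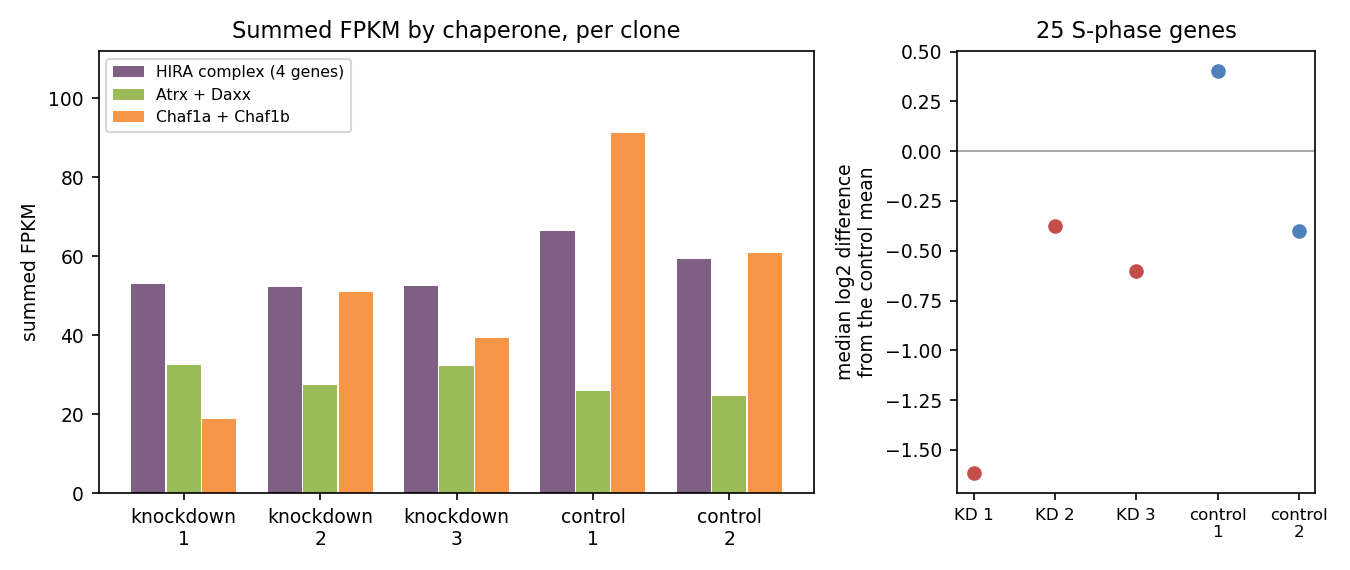
Left, summed FPKM of the HIRA complex genes, of Atrx with Daxx, and of Chaf1a with Chaf1b in each clone; right, the median log2 difference of 25 S-phase genes from the control mean in each clone (KD, knockdown). CAF-1 ranges from 18.8 in knockdown clone 1 to 91.3 in control clone 1 and has the same lowest and highest clone as the S-phase median.

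Across the 5 clones the profile of Chaf1b was the fifth nearest to that of Chaf1a among all tested genes, at a root mean square distance of 0.09 in centred log2(FPKM + 1). The 3 nearest to Chaf1a were Rad54l, Rad18 and Ccnf, at distances of 0.06 to 0.08. Those nearest to Chaf1b were D1Ertd622e, Tead4 and Odc1, at 0.05 to 0.09. Asf1b was nearest to Akap2, Fanca and Anxa3, at 0.06 to 0.10. Chaf1a was farther from it, at 0.25, and Chaf1b at 0.29, which were ranks 120 and 209 among the 11728 tested genes. None of these 9 genes was on the S-phase list, but that list holds only 25 of the 11728 tested genes, so this says little about them. The other 7 chaperone genes spanned less than 1 log2 unit over the clones and were not matched. All profiles share the same 5 libraries, so a small distance is a description of these clones.

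Of 24 other genes for H3 deposition, 0 passed the test, 2 had a log2 difference above 0 and 22 below, against 59.9% of all tested genes below 0, and the median was −0.41, against −0.10. Every knockdown clone lay below both controls in 9 of the 24, against 21.2%. H3f3a and H3f3b, the targets, are among the 24. Mcm2, a subunit of the replicative helicase that also holds H3 with H4, had 17.1, 58.7 and 48.1 FPKM in the knockdown clones, against 133.2 and 75.5 FPKM in the controls (log2 difference −1.43, SE 0.59, limma adjusted p = 0.512). Nasp, which keeps soluble H3 with H4, had 26.3, 65.5 and 46.2 FPKM in the knockdown clones, against 96.5 and 57.8 FPKM in the controls (log2 difference −0.78, SE 0.45, adjusted p = 0.558). Both had the clone order of the CAF-1 genes, and knockdown clone 2 was above control clone 2 for Nasp. Dek, a chromatin protein reported to bind H3.3, had 30.7, 66.0 and 54.7 FPKM in the knockdown clones, against 58.2 and 35.3 FPKM in the controls (log2 difference 0.08, SE 0.40, adjusted p = 0.941).

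The promoters of the 4 genes with the largest differences are shown because Asf1b, Chaf1a and Chaf1b had differences of one sign and Atrx of the other. Each runs from 250 bases before to 50 after the RefSeq start (build GRCm38.p6), and capitals mark every match to the motifs below. Atrx lies at chrX:105929323-105929622 (minus strand), Asf1b at chr8:83955444-83955743, Chaf1a at chr17:56040166-56040465 and Chaf1b at chr16:93883651-93883950 (plus strand).
Atrx: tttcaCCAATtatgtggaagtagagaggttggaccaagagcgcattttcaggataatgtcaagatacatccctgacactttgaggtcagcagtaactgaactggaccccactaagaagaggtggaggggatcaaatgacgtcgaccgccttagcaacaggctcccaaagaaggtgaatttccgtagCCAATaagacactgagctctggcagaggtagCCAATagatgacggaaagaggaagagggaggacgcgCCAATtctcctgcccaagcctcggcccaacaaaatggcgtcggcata
Asf1b: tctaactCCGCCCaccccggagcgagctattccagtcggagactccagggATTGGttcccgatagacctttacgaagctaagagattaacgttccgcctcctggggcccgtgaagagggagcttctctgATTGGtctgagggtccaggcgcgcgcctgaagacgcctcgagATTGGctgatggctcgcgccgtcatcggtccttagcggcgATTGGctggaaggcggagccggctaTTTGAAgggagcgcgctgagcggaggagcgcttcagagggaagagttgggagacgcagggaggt
Chaf1a: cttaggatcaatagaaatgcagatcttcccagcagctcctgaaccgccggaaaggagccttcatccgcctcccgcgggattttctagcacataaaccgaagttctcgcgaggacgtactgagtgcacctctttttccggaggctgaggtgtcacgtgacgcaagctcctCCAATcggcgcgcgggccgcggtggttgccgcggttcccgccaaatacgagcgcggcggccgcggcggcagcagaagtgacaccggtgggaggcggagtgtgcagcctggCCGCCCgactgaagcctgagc
Chaf1b: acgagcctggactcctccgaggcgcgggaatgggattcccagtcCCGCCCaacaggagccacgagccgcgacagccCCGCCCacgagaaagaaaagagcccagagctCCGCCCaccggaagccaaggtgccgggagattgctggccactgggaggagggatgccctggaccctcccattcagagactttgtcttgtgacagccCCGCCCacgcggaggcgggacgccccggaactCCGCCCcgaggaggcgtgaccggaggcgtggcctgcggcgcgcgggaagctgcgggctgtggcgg

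The motifs searched on both strands were TTTGGCGC, TTTCCCGC and TTTCGCGC, forms of the E2F site, TTTGAA, the core of the cell cycle homology region, CCAAT, the box bound by NF-Y, and GGGCGG, the GC box bound by SP1. All 10 genes had a RefSeq promoter, Daxx more than 1, of which the first was used. None held any of the 3 E2F forms, which 1.84% of 32851 mouse promoters of this length hold. Other spellings of that site were not searched, so these promoters cannot be said to lack one. TTTGAA was in Asf1b, from −14 to −9, and in Ubn2, against 17.9% of promoters. CCAAT was in 7 of the 10, against 37.4% of promoters, with 4 matches in Asf1b, all on the minus strand, 4 in Atrx, all on the plus strand, 1 in Chaf1a and none in Chaf1b, Hira or Ubn2. GGGCGG was in 8 of the 10, against 35.7%, with 5 matches in Chaf1b and none in Atrx or Ubn2. The CAF-1 promoters thus shared GGGCGG alone of these motifs. The GC content was 50.3% in Atrx, 61.3% in Asf1b, 63.0% in Chaf1a and 70.3% in Chaf1b, with 11, 27, 32 and 30 CpGs. The promoters behind the shares were not limited to expressed genes or matched in GC content, so no excess can be read from these counts. These are matches of letters and not measured sites.

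All loci are given in build mm9, that of the files, with the strand from RefSeq. Hira lies at chr16:18876843-18970401, Ubn1 at chr16:5050161-5086378, Ubn2 at chr6:38383925-38462763, Cabin1 at chr10:75108855-75227102 on the minus strand, and Atrx at chrX:102992956-103124711 on the minus strand. Daxx lies at chr17:34046390-34052535, Asf1a at chr10:53316767-53329021, Asf1b at chr8:86479593-86494094, Chaf1a at chr17:56179839-56207449 and Chaf1b at chr16:93884146-93906351. Every chaperone gene carried H3K4me3 and H3K9ac, marks of active gene starts. An H3K4me3 peak lay within 2 kb of a locus end in 10 of 10, against 91.7% of tested genes, and an H3K9ac peak in 10 of 10, against 86.2%. An H3K27ac peak was found at 8 of 10, against 64.9%, and the 2 without one were Asf1b and Chaf1b. At a peak score of at least 100, Asf1a and Chaf1a had none either. The 6 left were the replication-independent genes, against 40.0% of tested genes. The H3K4me3 peak over the start was widest at Ubn1, with 5083 bp, and narrowest at Chaf1b, with 2175 bp. The H3K9ac score, the deposited strength of a peak within its list, was 3104 at Ubn1 and 158.6 and 157.6 at Asf1b and Chaf1b. Windows of 2 kb also reach the genes Mrpl40 at Hira, Glyr1 and Ppl at Ubn1, BC051226 and Zbtb22 at Daxx, Mcm9 at Asf1a and Ubxn6 at Chaf1a, so a peak there is not that of the chaperone gene alone.

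RBBP4 peaks stood at 3 of the 10 genes in the knockdown library, Hira, Asf1a and Chaf1a, against 16.0% of tested genes, and at 3 of the 10 in the control library, Daxx, Asf1a and Chaf1a, against 15.2%. Each condition had 1 library, so differences between them have no replicate check. At Chaf1a a knockdown peak (chr17:56179700-56179854, score 62.3) ran from −139 to 15 bp of the gene start and a control peak (chr17:56179771-56179999, score 95.3) from −68 to 160 bp. They shared 84 bp, the one overlap among the 10 genes. At Asf1a a knockdown peak (score 52.6) ran from −232 to −75 bp of the start and a control peak (score 61.7) from 305 to 551 bp, with 379 bp between them. Hira had 2 peaks in the knockdown library (scores 58.0 and 67.7), between 145 and 551 bp into the gene, and 0 in the control library. Daxx had 0 in the knockdown library and 1 in the control library (score 59.8), from −1088 to −926 bp of its start and within BC051226. The lists start at a score of 50, and at a score of at least 100 0 of the 10 genes had an RBBP4 peak in the knockdown library, against 5.87% of tested genes, and 0 in the control library, against 6.99%. MTA1 peaks stood at 0 of 10 genes in the knockdown library, against 3.89% of tested genes, and at 0 of 10 in the control library, against 3.65%. The sequential ChIP, with 6 peaks in all, had none at the 10 genes, against 0.0682%.

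**Figure D4:**
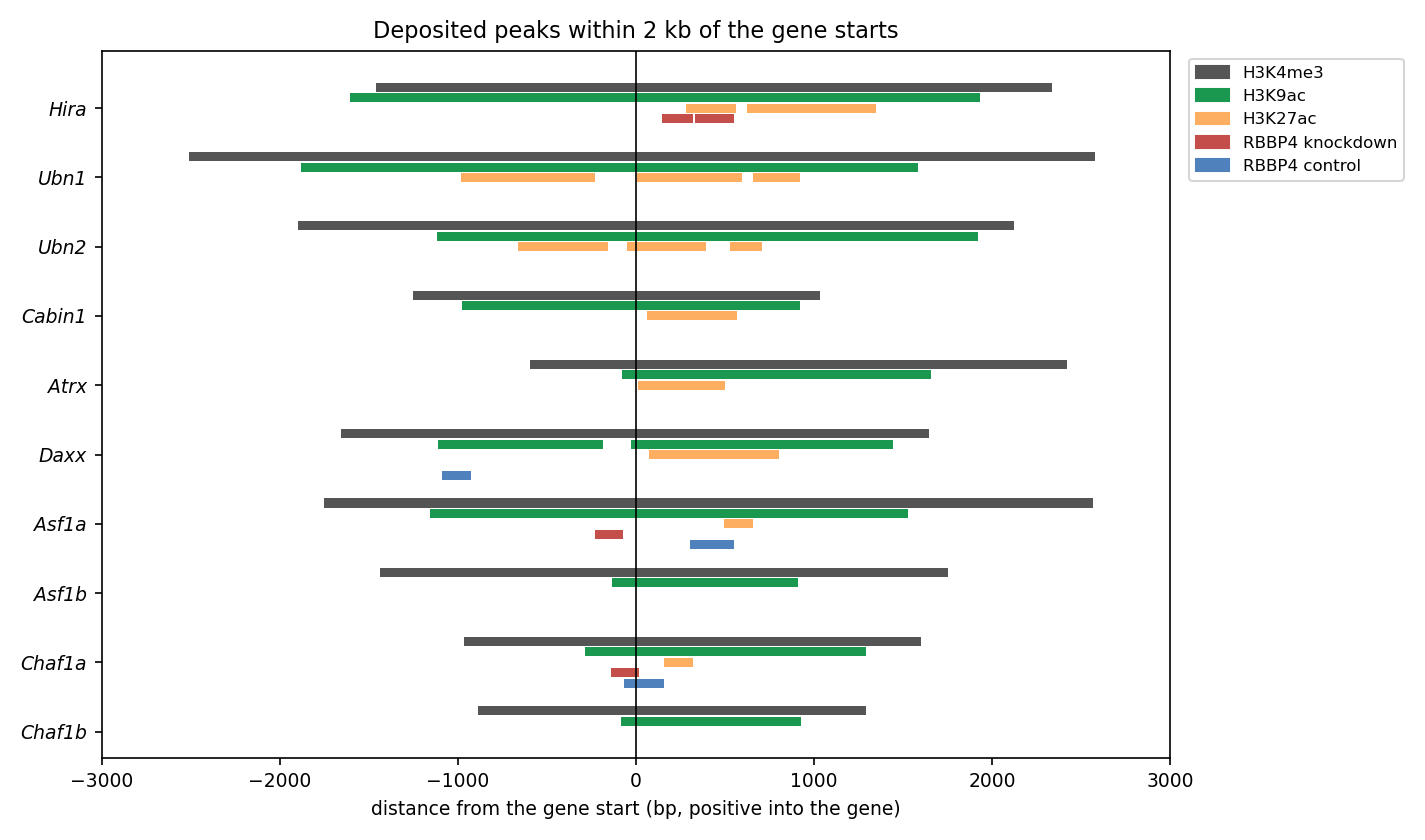
Deposited peaks within 2 kb of the starts of the 10 genes, by distance from the start (bp, positive into the gene), for H3K4me3, H3K9ac and H3K27ac in unmodified cells and for RBBP4 in knockdown and control cells. H3K27ac bars are missing at Asf1b and Chaf1b, and the RBBP4 bars of knockdown and control cells overlap at Chaf1a alone.

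Levels at the gene starts were read from a deposited table of regions, as RPKM (reads scaled to region length and library size), for HA-H3.3 in the tagged, aphidicolin-held cells and for the modifications and NuRD subunits in unmodified cells. For each gene the region with the most H3K4me3 within 2 kb of the start was used, which favours a high H3K4me3 level. Percentiles are among 11827 regions annotated as promoters. Those regions were not picked by H3K4me3 or limited to expressed genes, so percentiles and shares of promoter regions are not a like-for-like background. HA-H3.3 was high at the HIRA genes, Daxx and Asf1a and low at Chaf1b. Asf1a had 15.3 and 9.92 RPKM in replicates 1 and 2, percentile 99.8 by their mean, and Hira had 9.53 and 8.13 RPKM, percentile 98.2. Ubn1 followed with 6.05 and 8.76 RPKM, then Ubn2 with 5.91 and 5.90 RPKM. Daxx had 4.96 and 4.92 RPKM and Cabin1 5.07 and 4.40 RPKM. These 6 genes lay at percentile 81.1 or above. Chaf1a had 2.97 and 4.19 RPKM, percentile 66.7. Asf1b had 2.68 and 2.82 RPKM and Atrx 2.77 and 2.73 RPKM, near the promoter median of 2.83 RPKM. Chaf1b had 0.916 and 0.580 RPKM, percentile 4.68, from 7 and 6 reads in a region of 563 bp. The adjoining region of Chaf1b, 694 bp long, had 2.66 and 3.22 RPKM, so its low level covers a short stretch. That adjoining region is annotated as a promoter, and the short one used, like those of Atrx and Chaf1a, is not. HA-H3.3 peaks covered 0% of the adjoining region in replicate 1 and 100% in replicate 2. An HA-H3.3 peak covered part of the start region in 9 of 10 genes in each replicate, all but Chaf1b, against 61.2% and 74.7% of promoter regions in replicates 1 and 2. Counting every region within 2 kb of either end, 9 genes had such a peak in replicate 1 and 10 in replicate 2, Chaf1b included.

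H3K4me3 ranged from 10.7 RPKM at Asf1b to 26.8 RPKM at Ubn1. Chaf1b, lowest of the 10 in HA-H3.3, had 22.6 RPKM of H3K4me3, percentile 92.3, and the lowest H3K27ac, 0.691 RPKM, from 8 reads. That region was picked for its H3K4me3. The adjoining region of Chaf1b, annotated as a promoter, had 6.16 RPKM of H3K4me3, beside a median of 9.49 RPKM over promoter regions. H3K27ac was highest at Ubn1, with 3.85 RPKM, and Atrx, with 2.91 RPKM, percentile 91.9. The median H3K27ac level was 2.62 RPKM over the 6 replication-independent genes and 1.2 RPKM over the 2 CAF-1 genes, beside 1.41 RPKM over promoter regions. Chaf1a, with 1.70 RPKM, lay close to Daxx, the lowest of the 6, with 1.72 RPKM, and Chaf1b lay below both. The median H3K9ac level was 4.94 RPKM over the replication-independent genes and 3.72 RPKM over the CAF-1 genes, beside 1.98 RPKM over promoter regions. Here Chaf1a, with 4.28 RPKM, lay above Daxx, with 3.39 RPKM, and Chaf1b had 3.15 RPKM. The order of these marks was not that of the mean RNA levels. Asf1b had the highest mean FPKM of the 10 in both clone groups and the lowest H3K4me3 and H3K9ac. It was not first in every clone: in knockdown clone 1 it had 10.8 FPKM and Ubn1 26.4 FPKM. The marks are from unmodified cells and the RNA from the clones given doxycycline.

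RBBP4 in unmodified cells was highest at Asf1b, with 5.83 RPKM, percentile 96.3, then at Cabin1 and Chaf1a, with 4.90 and 4.89 RPKM. It was lowest at Atrx and Asf1a, each with 2.63 RPKM. An RBBP4 peak covered part of the start region in 10 of 10 genes, against 61.3% of promoter regions. The promoter regions were not picked by H3K4me3 or limited to expressed genes, so no excess can be read from this share or those below. The other subunits covered fewer. HDAC2 peaks lay on 5 of 10 start regions, against 34.2%, and HDAC1 peaks on 4, against 19.0%. MBD2/3 peaks lay on 4, against 8.21%, MTA1 peaks on 3, against 7.77%, and a CHD4 peak on 1, Daxx, against 6.89%. Hira led the 10 genes in MTA1, CHD4 and HDAC2 level, with 2.47, 2.36 and 4.87 RPKM, and Asf1b in MBD2/3, with 2.45 RPKM. Atrx was lowest in MTA1 and HDAC1, with 0.756 and 0.801 RPKM, from 6 and 5 reads. A start level rested on 5 to 1448 reads, which is a counting error of 44.7% at the fewest reads and 2.63% at the most. Subunits and modifications had 1 library each, so the order of genes within a target is a description.

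**Figure D5:**
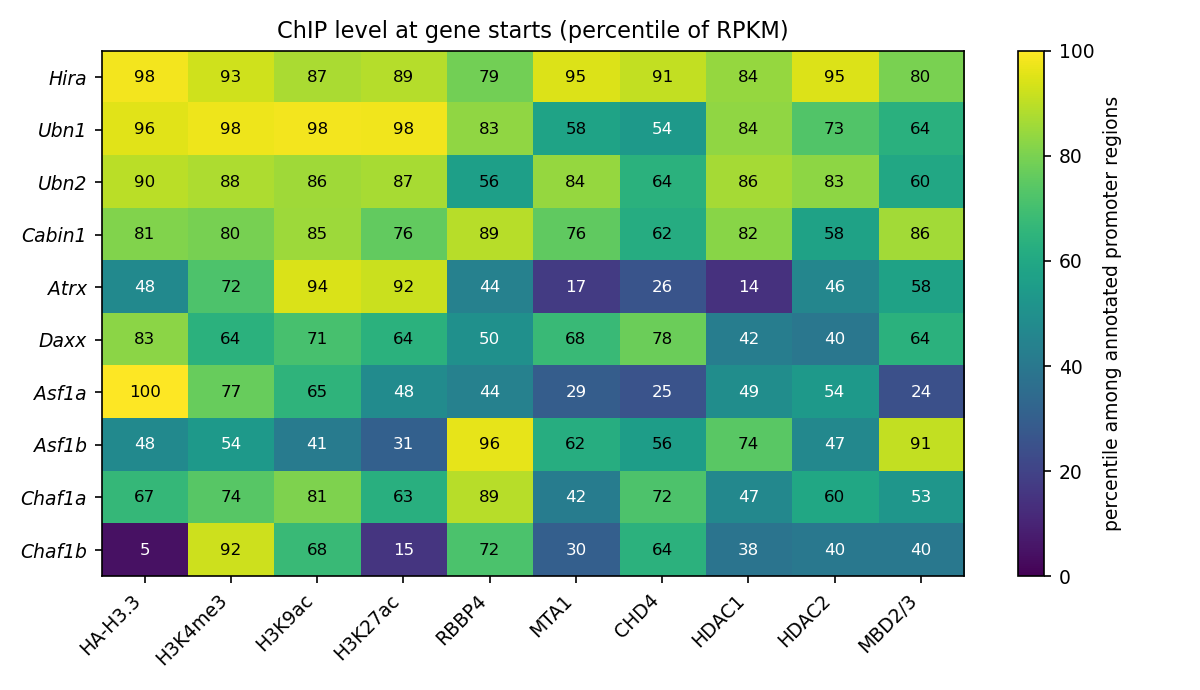
Percentile, among 11827 promoter regions, of the ChIP level (RPKM) at the start region of each chaperone gene for HA-H3.3 (mean of 2 replicates) and for modifications and NuRD subunits (1 library each). HA-H3.3 is near the top at Asf1a and Hira and near the bottom at Chaf1b, where H3K4me3, by which the region was picked, is high.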

How the data were processed

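RNA was measured in 3 knockdown and 2 control clones, and chromatin in unmodified, tagged, knockdown and control cells; groups came from the labels alone. Per the submitters' processing notes, Bowtie, TopHat, Cufflinks, Cuffdiff, bedtools and MACS2 were used with build mm9; their roles and versions were not stated, except MACS 2.1.1.20160309 for the sequential ChIP, per the file headers. The authors deposited FPKM per gene, with no counts; entries of a symbol were summed and fragments estimated from the deposited interval (2 SD). The deposited region table holds log2(RPKM + 1) values: read that way, all values under 100 reads were whole within 0.05. A second deposited table gives the fraction of each region covered by peaks. Peak lists were deposited with a score per peak, and the sequential list with a fold enrichment ratio; peaks counted if they shared at least 1 bp with the 2 kb around either locus end.

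The clone groups were tested in limma 3.58.1 under R 4.3.3 (two-sided, lmFit and eBayes with a trend) on values of log2(FPKM + 1), a scale that understates differences of low genes. The 11728 genes averaging 1 FPKM or more entered, and p-values were adjusted by Benjamini and Hochberg; the procedure was tested on simulated data. Tables were handled in Python 3.11.15 with pandas 2.3.3. Percent called is the share of tested genes that meet the same criterion. The 10 genes, the lists and the motifs were chosen with earlier results of these data known. Named beyond the 10 were 6 genes of the H3 deposition list and the 3 nearest profiles of any member that spanned at least 1 log2 unit. Alternatives covered the pseudocount, the filter, normalization, weights, left-out clones, windows, scores and regions. Inputs were not used here.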

Additional observations from a re-analysis of the deposited data

How the results depend on the processing

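None of the 10 chaperone genes passed the limma test under any of 13 alternatives, and 123 of 129 differences kept their sign. The 6 that turned were Cabin1 under quantile normalization (0.10), without control clone 1 (0.13) and without knockdown clone 1 (0.015), Daxx under quantile normalization (0.11) and without knockdown clone 2 (0.063), and Asf1a without control clone 1 (0.079). The filter and trend settings cannot change a gene's difference, and the replicate block repeats the differences without knockdown clone 3. The signs under those settings are therefore no separate check. Over all genes, 1 passed as higher and 3 as lower. Of higher genes there were 2 with a pseudocount of 0.1, 2 with 0.01 and 4 with array weights, and of lower genes 5 without the filter, 5 without the trend and 8 with array weights. With 1 clone left out, the number ran from 2 to 7 for higher and from 2 to 31 for lower genes; where 1 control remained, it was assumed to vary like the knockdown clones. Clone numbers pair nothing in the labels, and with the replicate block 0 genes were higher and 0 lower in limma, with 504 at an unadjusted p under 0.05. In that fit knockdown clone 3, the only clone of its number, is matched exactly. Each difference is thus that without knockdown clone 3, with less left to measure the spread. Deviations of same-numbered clones correlated at −0.25 and −0.10, and the cause of that was not tested. With 1 clone left out, 2 to 6 chaperone genes had all knockdown clones below the controls, the log2 difference was −0.16 to 0.13 for Cabin1, −0.14 to 0.063 for Daxx and −0.40 to 0.079 for Asf1a, and that of the HIRA complex sum ran from −0.34 to −0.17.

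At a score of at least 100, RBBP4 peaks stood at 0 genes in knockdown and 0 in control cells, against 3 and 3; no score of that kind exists for the sequential list, where this was not run. Averaged over all regions in either window, median levels of the 10 genes were 3.46 RPKM for HA-H3.3, 9.31 for H3K4me3, 2.62 for H3K9ac, 1.33 for H3K27ac and 2.29 for RBBP4, against 4.84, 17.5, 4.53, 1.91 and 4.12 in the start regions; the averages add regions away from the start. Limits are the 2 control clones, 1 library for most ChIP targets, the unknown depth of the knockdown and control ChIP, and start regions with few reads at Chaf1b and Atrx.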
